A study of Mus musculus with 6 samples.

Results

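Negative regulators of Toll-like receptor (TLR) signalling were examined in the small intestine of mice. The set is 9 genes, Sigirr, Il1rl1, Tollip, Irak3, Tnfaip3, Tnip1, Cyld, Nfkbia and Socs1, picked by gene name from the 54012 genes of the table for their known role as inhibitors. Each of the 9 is in the table, and each reached the mean of 1 TPM (a measure of transcript abundance scaled for length and depth) that was needed for testing, as did 13458 genes in all. RNA sequencing was done on total RNA of intestine from 3 mice labelled TLR4ΔIEC and 3 labelled wild type (WT), all aged 8 to 12 weeks. The series asks what the loss of intestinal TLR4 does to gene expression. The label ΔIEC is read here as a deletion in intestinal epithelial cells; the promoter that drives it, the strain, any treatment, the sex of the mice and the stretch of small intestine are not given in the sources used here, and the column names AP and TK_AP are not explained there. RNA of intestine holds epithelium, immune cells and stroma together, so fewer cells of a type and less RNA per cell cannot be told apart.

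Toll-like receptors and the interleukin-1 receptor family share an intracellular TIR domain, which recruits the adaptor MyD88 and IRAK kinases. The signal passes through the ubiquitin ligase TRAF6 to the IκB kinase complex, which marks the inhibitor IκBα for destruction and frees NF-κB. Each step has its own brake. SIGIRR and ST2 act at the receptor, TOLLIP and IRAK3 at the IRAK step, the ubiquitin-editing proteins A20, ABIN1 and CYLD between the receptor complex and the IκB kinases, and IκBα on NF-κB itself, while SOCS1 curbs cytokine receptors and adaptors. In the gut these brakes are known for holding down the response to the bacteria of the lumen. Several are themselves made under the control of NF-κB, so their transcripts are often used as readouts of the pathway.

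The targeted gene Tlr4 stood at 1.29, 1.22 and 4.81 TPM in libraries labelled TLR4ΔIEC and at 0.65, 0.57 and 0.70 TPM in the WT libraries, so it was higher, not lower, where the label names its deletion. Its log2 fold change was 0.92 (limma adjusted p = 0.243), and 24.1% of all tested genes also had each TLR4ΔIEC library above each WT library. RNA of intestine also holds cells other than epithelium. The level of Tlr4 thus does not bear out the labels and cannot show them wrong, and each direction given here is between labels. TLR4ΔIEC replicate 2 stood apart, with 12221 genes at 1 TPM or more, against 13561 and 13634 in the other TLR4ΔIEC libraries and 13197 to 13390 in the WT libraries. The alpha-defensins of Paneth cells took 5.21 to 18.4% of all TPM in libraries labelled TLR4ΔIEC and 25.3 to 28.8% in the WT libraries, and TPM add up to the same total in every library. Across the 13458 tested genes the median log2 fold change was 0.16, and 68.1% of them had a positive one. Depth is unknown, because TPM keep no read totals.

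None of the 9 inhibitors changed past an adjusted p of 0.05 in limma, where the background was 0.119% of the tested genes (16 genes: 0.0446% higher and 0.0743% lower). At an unadjusted p under 0.05 limma gave 2 of the 9, Sigirr and Tnfaip3, against 21.2% of all tested genes. The adjusted p of the 9 ran from 0.188 to 0.791. The 3 libraries labelled TLR4ΔIEC lay above the 3 WT libraries in 1 inhibitor, Tnfaip3, while this was so in 24.1% of all tested genes, and the other 8 overlapped. In 0 of the 9 did they lie below WT, against 3.53% of all tested genes, and either way 27.6% had groups that did not overlap. Log2 fold changes were positive in 7 of the 9 and negative in Il1rl1 and Irak3, where 68.1% of all tested genes were positive. Other scalings gave positive values in 7, 6 and 5 of the 9 against 53.7, 52.5 and 34.7% of all genes, by median-of-ratios scaling, by quantile normalization and in TPM rescaled without alpha-defensin, mitochondrial and 18S-like genes. The median of the 9 was 0.32, and 31.9% of all tested genes had a larger value than that. In the same order of scalings the median was 0.17, 0.078 and 0.011 for the 9, against 0.028, 0.018 and −0.13 for all genes. Without TLR4ΔIEC replicate 2 the median was 0.19 for the 9 and 0.215 for all tested genes.

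**Figure D1:**
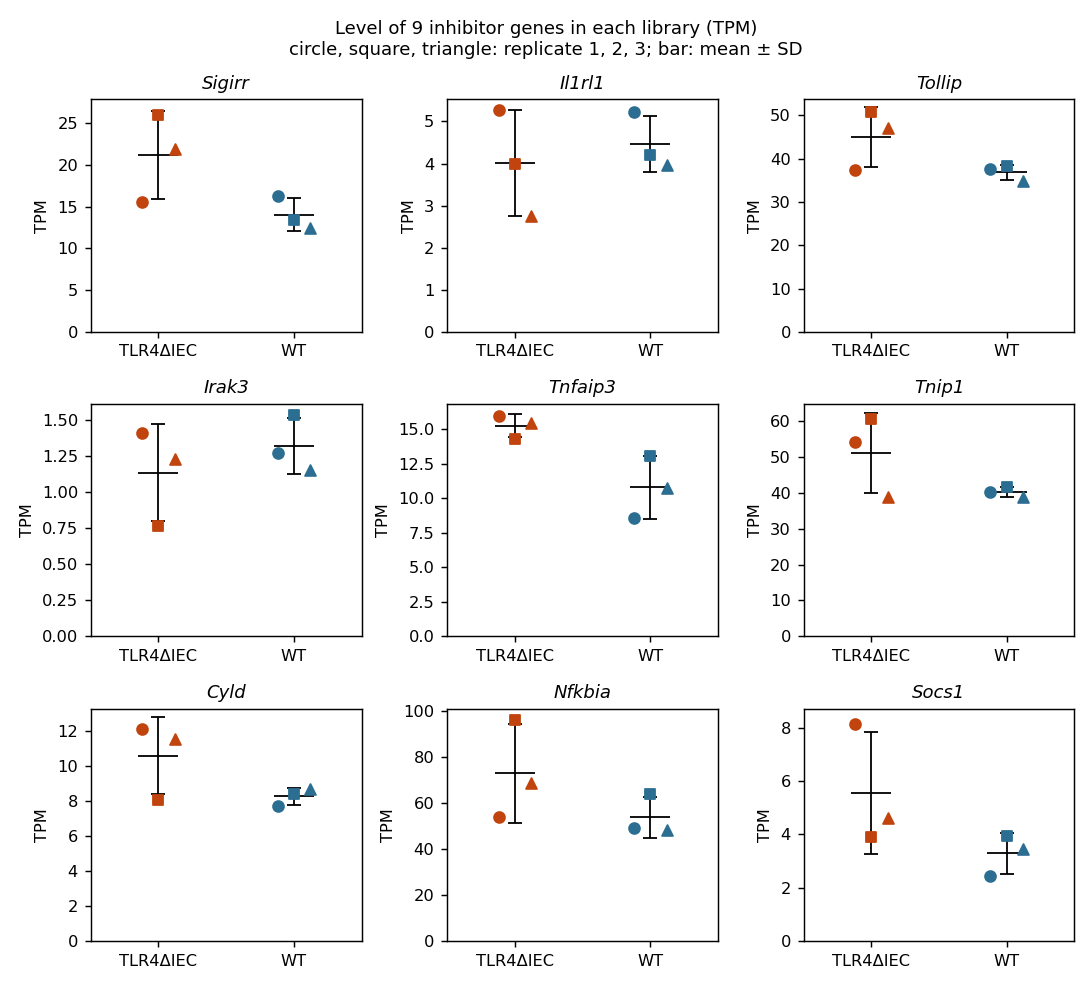
Level of each inhibitor in TPM (vertical axis, from 0) in the 3 libraries labelled TLR4ΔIEC (left, orange) and the 3 WT libraries (right, blue); circle, square and triangle are replicates 1, 2 and 3, and bars are the mean ± SD. The groups lie apart in Tnfaip3, at 14.34 to 15.95 TPM in TLR4ΔIEC and 8.55 to 13.08 TPM in WT, and overlap in the other 8 genes.

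The 9 genes spanned a wide range of levels, and their order was nearly the same under both labels. By mean TPM it ran, in libraries labelled TLR4ΔIEC, from Nfkbia through Tnip1, Tollip, Sigirr, Tnfaip3, Cyld, Socs1 and Il1rl1 to Irak3, and in the WT libraries Il1rl1 stood above Socs1. Neighbours whose ranges overlapped in libraries labelled TLR4ΔIEC were Nfkbia and Tnip1, Tnip1 and Tollip, Sigirr and Tnfaip3, Cyld and Socs1, and Socs1 and Il1rl1. In the WT libraries the overlapping neighbours were Sigirr with Tnfaip3 and Tnfaip3 with Cyld, and the rest were apart. TPM are scaled per transcript length, so these levels can be set beside each other. The spread between mice, as SD over mean, was larger in libraries labelled TLR4ΔIEC for 8 of the 9, from 15.3% for Tollip to 41.0% for Socs1. Tnfaip3 was the exception, with 5.43% in TLR4ΔIEC and 21.0% in WT. The share of all tested genes with a larger spread in TLR4ΔIEC was not counted, so the pattern cannot be called particular to the 9. Libraries labelled TLR4ΔIEC also spanned more in genes at 1 TPM or more, with 12221 to 13634, against 13197 to 13390 in WT.

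Sequences upstream of the inhibitors are shown here because NF-κB drives several of its own brakes. RefSeq (GRCm38.p6) gave start sites for 8 of the 9 genes, all but Sigirr. The NF-κB consensus motif was searched on both strands in the 250 bases before each start. A match was found in 4 of the 11 stretches of these 8 genes, in Tnip1, Cyld, Nfkbia and Tnfaip3, and 7.25% of all 32851 such stretches held one. Il1rl1, Tollip, Irak3 and Socs1 had none in this stretch. Starts differ between annotations. The stretch of Tollip and a stretch each of Irak3 and Il1rl1 lie inside the gene as GENCODE M21 draws it, as do the matches of Tnfaip3. Capitals mark the matches, each sequence reads 5′ to 3′ on the strand of its gene, and base −1 is the last base before the start.
Tnip1, chr11:54962941-54963190, minus strand: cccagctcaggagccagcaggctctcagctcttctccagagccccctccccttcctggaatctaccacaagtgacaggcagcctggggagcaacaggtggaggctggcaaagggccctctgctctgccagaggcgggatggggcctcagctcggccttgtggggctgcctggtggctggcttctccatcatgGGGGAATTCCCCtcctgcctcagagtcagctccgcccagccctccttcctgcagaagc
Nfkbia, chr12:55492648-55492897, minus strand: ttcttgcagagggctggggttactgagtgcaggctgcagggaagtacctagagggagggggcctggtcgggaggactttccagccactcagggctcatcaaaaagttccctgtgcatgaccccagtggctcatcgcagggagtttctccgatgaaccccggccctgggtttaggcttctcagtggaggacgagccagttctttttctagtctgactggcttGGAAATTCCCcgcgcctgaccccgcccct
Cyld, chr8:88696778-88697027, plus strand: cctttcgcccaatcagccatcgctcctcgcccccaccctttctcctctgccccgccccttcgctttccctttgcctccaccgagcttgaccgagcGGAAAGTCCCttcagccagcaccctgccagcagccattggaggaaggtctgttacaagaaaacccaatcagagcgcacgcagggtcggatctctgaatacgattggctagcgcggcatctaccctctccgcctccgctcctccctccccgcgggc
Tnfaip3, chr10:19015516-19015545, minus strand: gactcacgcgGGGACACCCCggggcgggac
Tnfaip3, chr10:19015411-19015440, minus strand: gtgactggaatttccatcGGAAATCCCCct
The run in Tnip1 is a palindrome that holds 3 overlapping matches between bases −58 and −47. The match of Nfkbia lies at bases −29 to −20 and that of Cyld at −155 to −146. The 2 matches of Tnfaip3 lie at −125 to −116 and at −12 to −3, and only short stretches of it are given because GENCODE M21 places exon bases of Tnfaip3 in the same window. The GAS motif of STAT factors, TTCNNNGAA, was searched likewise and was in 7.02% of the stretches and, among the 8 genes, in Tnip1 alone, not in Socs1, which is known as a target of interferon signalling. A match is a description of letters and shows no binding.

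At the receptor, Sigirr and Il1rl1 differed in pattern. Sigirr (ENSMUSG00000025494, GRCm38 chromosome 7, 141091175 to 141100572, minus strand) encodes a single-immunoglobulin receptor that sits in the gut epithelium and blocks signalling from TLR4 and interleukin-1 receptors. It stood at 15.58, 25.96 and 21.94 TPM in TLR4ΔIEC replicates 1, 2 and 3, against 16.25, 13.4 and 12.4 TPM in WT replicates 1, 2 and 3. TLR4ΔIEC replicates 2 and 3 lay above every WT library, and TLR4ΔIEC replicate 1 lay just under WT replicate 1. Means were 21.2 ± 5.23 TPM in TLR4ΔIEC and 14.0 ± 1.99 TPM in WT (SD, n = 3 each), a log2 fold change of 0.54 (95% interval 0.041 to 1.04, limma adjusted p = 0.208). Without TLR4ΔIEC replicate 1 it was 0.74 (limma adjusted p = 0.0725), the lowest adjusted p that any inhibitor reached in any alternative. Without TLR4ΔIEC replicate 2 it was 0.38, and it was 0.40 by median-of-ratios scaling, 0.32 by quantile normalization and 0.24 in the rescaled TPM (limma adjusted p = 0.540, 0.554 and 0.589).

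Il1rl1 (ENSMUSG00000026069, chromosome 1, 40429570 to 40465415, plus strand) encodes ST2, the receptor for the alarmin interleukin-33, which is known both as a membrane receptor and as a soluble decoy; the 2 forms cannot be told apart in values per gene. It read 5.27, 4.0 and 2.75 TPM in libraries labelled TLR4ΔIEC, against 5.23, 4.2 and 3.96 TPM in the WT libraries. The groups overlapped, with TLR4ΔIEC replicate 3 the lowest of the 6 and both replicates 1 the highest. The log2 fold change was −0.15 (95% interval −0.70 to 0.40, limma adjusted p = 0.754), and it turned to 0.043 without TLR4ΔIEC replicate 3 and was −0.43 in the rescaled TPM (limma adjusted p = 0.524). Its ligand Il33 read 4.18, 0.81 and 2.82 TPM in libraries labelled TLR4ΔIEC and 4.33, 10.2 and 8.82 TPM in the WT libraries, so each TLR4ΔIEC library lay below each WT library, with a log2 fold change of −1.34 (limma adjusted p = 0.162). For the co-receptor Il1rap it was −0.092, and 0.070 without TLR4ΔIEC replicate 2, and the type 2 cytokine Il4 stayed at or below 0.24 TPM in every library.

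ST2 is carried by mast cells, group 2 innate lymphoid cells and regulatory T cells, among others. The summed level of 8 mast cell genes was 9.26 to 14.5 TPM in libraries labelled TLR4ΔIEC and 11.9 to 148.9 TPM in the WT libraries. The high end came from WT replicate 1, where the mast cell protease Mcpt1 read 101.6 TPM, against 3.71 to 4.49 TPM in the TLR4ΔIEC libraries and 4.64 and 7.08 TPM in the other WT libraries. Of this list, Cma1 was listed at 0 in each library, and Fcer1a, Cpa3, Tpsb2 and Ms4a2 were listed at 0 in at least 1 library and at or below 1.48 TPM in the others. Il1rl1 in WT replicate 1, at 5.23 TPM, was no higher than in TLR4ΔIEC replicate 1. The 6 genes of innate lymphoid and regulatory T cells summed to 0.79 to 3.05 TPM in TLR4ΔIEC and 2.65 to 3.97 TPM in WT. The part of these cells in the level of Il1rl1 was not tested.

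At the IRAK step, Tollip was among the more abundant inhibitors and Irak3 the least. Tollip (ENSMUSG00000025139, chromosome 7, 141874813 to 141918507, minus strand) encodes an adaptor that binds IRAK1 and also steers receptors to endosomes. Its TPM were 37.4, 50.7 and 47.1 in libraries labelled TLR4ΔIEC, against 37.5, 38.2 and 34.9 in the WT libraries. TLR4ΔIEC replicates 2 and 3 were above the WT range and TLR4ΔIEC replicate 1 within it, the same layout as in Sigirr. The log2 fold change was 0.27 (95% interval −0.088 to 0.63, limma adjusted p = 0.355), and it turned to −0.034 under quantile normalization and to −0.046 in TPM rescaled without alpha-defensin, mitochondrial and 18S-like genes. Sigirr and Tollip both lie on chromosome 7, 774 kb apart with 32 protein-coding genes between them.

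Irak3 (ENSMUSG00000020227, chromosome 10, 120141648 to 120202130, minus strand) encodes IRAK-M, an IRAK family member with an inactive kinase domain that is best known from monocytes and macrophages. It read 1.41, 0.76 and 1.23 TPM in libraries labelled TLR4ΔIEC, against 1.27, 1.53 and 1.15 TPM in the WT libraries. The groups overlapped, and TLR4ΔIEC replicate 2 was the lowest. Its log2 fold change was −0.13 (95% interval −0.67 to 0.41, limma adjusted p = 0.791), and it turned to 0.0043 without TLR4ΔIEC replicate 2 and was −0.34 in the rescaled TPM (limma adjusted p = 0.577). The 10 macrophage and monocyte genes likewise had their lowest sum in that library. They summed to 325.6, 104.9 and 250.7 TPM in TLR4ΔIEC and to 265.7, 231.6 and 234.5 TPM in WT. None of these 10 is at 0 in any library. The sums of the fibroblast, smooth muscle, endothelial, T cell, B and plasma cell and mast cell lists were also lowest there. A low sum in that library is thus not particular to macrophage genes, and the part of any of these cells in the level of Irak3 was not tested. Per unit of Irak1, the active kinase of the same family, Irak3 overlapped between labels, at 0.0947, 0.0942 and 0.110 in TLR4ΔIEC and 0.0875, 0.105 and 0.0870 in WT. Tmbim4, on the opposite strand, overlaps Irak3 and read 120.2 to 179.4 TPM in TLR4ΔIEC and 95.7 to 106.9 TPM in WT. The sources used here do not say whether reads were counted by strand, so the low values of Irak3 are uncertain.

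Among the ubiquitin-editing brakes, Tnfaip3 had the smallest p of the 9. Tnfaip3 (ENSMUSG00000019850, chromosome 10, 19000910 to 19015657, minus strand) encodes A20, which removes activating ubiquitin chains from TRAF6 and RIPK1 and protects the gut epithelium from cell death. It stood at 15.95, 14.34 and 15.49 TPM in libraries labelled TLR4ΔIEC, against 8.55, 13.08 and 10.79 TPM in the WT libraries. Each library labelled TLR4ΔIEC lay above each WT library, by the narrow margin of TLR4ΔIEC replicate 2 over WT replicate 2 at the closest point. Means were 15.3 ± 0.829 TPM in TLR4ΔIEC and 10.8 ± 2.27 TPM in WT (SD, n = 3 each), with a log2 fold change of 0.48 (95% interval 0.063 to 0.89, limma adjusted p = 0.188). For this gene the exact permutation test, two-sided, gave p = 0.1, the smallest that 3 against 3 allows. The rescaled TPM without alpha-defensin, mitochondrial and 18S-like genes overlapped, at 20.75, 16.35 and 18.3 in TLR4ΔIEC and 12.85, 19.2 and 16.8 in WT, and there the log2 fold change was 0.18.

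Tnip1 (ENSMUSG00000020400, chromosome 11, 54910785 to 54962917, minus strand) encodes ABIN1, which brings A20 to ubiquitin chains. Its levels were 54.3, 60.6 and 38.9 TPM in libraries labelled TLR4ΔIEC, against 40.4, 41.7 and 38.8 TPM in the WT libraries. TLR4ΔIEC replicates 1 and 2 were above WT, and TLR4ΔIEC replicate 3 was level with the lowest WT library. The log2 fold change was 0.32 (95% interval −0.11 to 0.75, limma adjusted p = 0.366), and it came to −0.00080 in the rescaled TPM. The ratio of Tnfaip3 to Tnip1, which no scaling by 1 factor per library moves, was 0.294, 0.237 and 0.398 in TLR4ΔIEC and 0.212, 0.314 and 0.278 in WT, and overlapped between labels.

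Cyld (ENSMUSG00000036712, chromosome 8, 88697028 to 88751945, plus strand) encodes a deubiquitinase that trims lysine-63-linked and linear chains, and was first known as a tumour suppressor. It read 12.1, 8.07 and 11.6 TPM in libraries labelled TLR4ΔIEC, against 7.75, 8.4 and 8.7 TPM in the WT libraries. TLR4ΔIEC replicates 1 and 3 stood above the WT range and TLR4ΔIEC replicate 2 within it. Its log2 fold change was 0.30 (95% interval −0.13 to 0.74, limma adjusted p = 0.390), 0.47 without TLR4ΔIEC replicate 2 (limma adjusted p = 0.191) and 0.011 in the rescaled TPM.

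The feedback inhibitors Nfkbia and Socs1 each had 1 high library among those labelled TLR4ΔIEC, and not the same one. Nfkbia (ENSMUSG00000021025, chromosome 12, 55489410 to 55492647, minus strand) encodes IκBα, which holds NF-κB in the cytoplasm and is remade within minutes of its activation. It was the most abundant of the 9, at 53.8, 96.0 and 68.9 TPM in libraries labelled TLR4ΔIEC and 49.1, 64.1 and 48.2 TPM in the WT libraries. TLR4ΔIEC replicate 2 was far the highest, and TLR4ΔIEC replicate 1 lay within the WT range. The log2 fold change was 0.40 (95% interval −0.15 to 0.95, limma adjusted p = 0.369), 0.19 without TLR4ΔIEC replicate 2 and 0.078 under quantile normalization. Per unit of Rela, the NF-κB subunit that IκBα holds, the level was 2.70, 3.72 and 2.80 in TLR4ΔIEC and 2.86, 3.82 and 3.23 in WT. On this ratio the groups overlapped and the mean was 3.07 in TLR4ΔIEC and 3.30 in WT.

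Socs1 (ENSMUSG00000038037, chromosome 16, 10782240 to 10785536, minus strand) encodes an inhibitor of JAK kinases that also acts on the TLR adaptor MAL. It stood at 8.14, 3.89 and 4.61 TPM in libraries labelled TLR4ΔIEC, against 2.45, 3.95 and 3.45 TPM in the WT libraries. TLR4ΔIEC replicate 1 was the highest and TLR4ΔIEC replicate 2 lay just under the top of the WT range. Its log2 fold change of 0.57 was the largest of the 9 and the least precise (95% interval −0.086 to 1.23, limma adjusted p = 0.291), and it was 0.31 without TLR4ΔIEC replicate 1. The interferon-induced chemokine Cxcl10 was also highest in TLR4ΔIEC replicate 1, as were 24.1% of all tested genes. It read 43.3, 4.91 and 5.97 TPM in TLR4ΔIEC and 7.4, 10.85 and 8.19 TPM in WT.

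**Figure D2:**
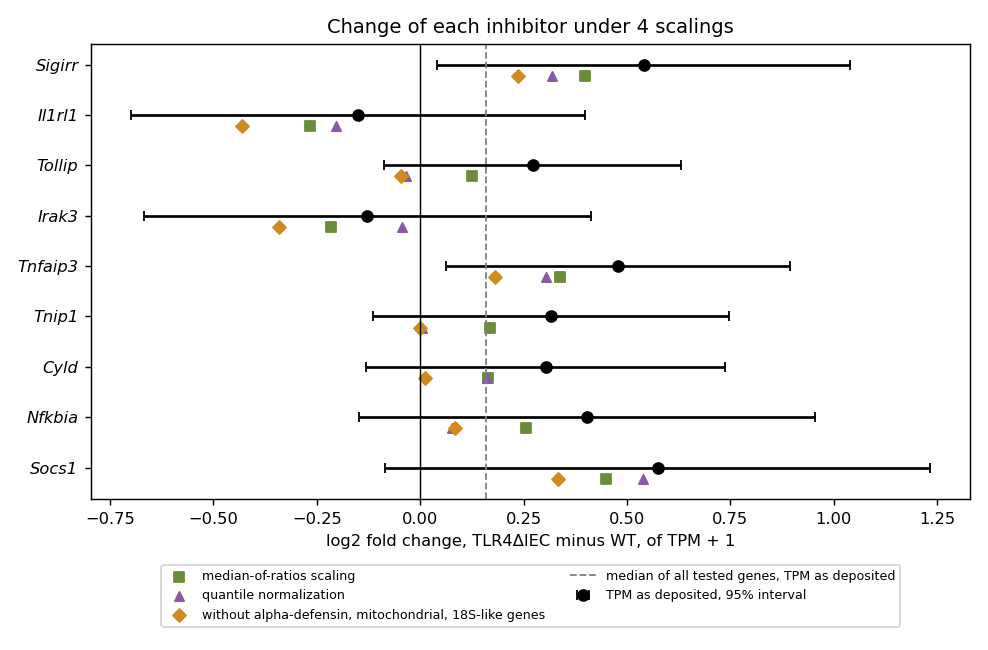
Log2 fold change of TPM + 1, TLR4ΔIEC minus WT (horizontal axis), for each inhibitor (rows): black points with 95% intervals are TPM as deposited, coloured points are 3 other scalings, and the dashed line is the median of all tested genes, 0.16. The intervals of Sigirr and Tnfaip3 lie above 0, the other 7 hold 0, and in 8 of the 9 genes, all but Irak3, each other scaling gives a lower value than TPM as deposited.

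The 9 genes did not vary as 1 group across the mice. Sigirr, Tollip and Nfkbia shared a profile that was highest in TLR4ΔIEC replicate 2, next in replicate 3 and lowest of the 3 in replicate 1. Their gene-centred log2 profiles were among the closest, with root-mean-square distances over the 6 libraries of 0.178 for Tollip and Nfkbia, 0.181 for Sigirr and Tollip, and 0.209 for Sigirr and Nfkbia. Tnfaip3, Cyld and Socs1 were highest in TLR4ΔIEC replicate 1 instead, at distances of 0.204 for Tnfaip3 and Cyld, 0.245 for Tnfaip3 and Socs1 and 0.260 for Cyld and Socs1. Il1rl1 was also highest there, by little, at 5.27 TPM against 5.23 TPM in WT replicate 1. These sets were not cleanly apart, since Tollip and Tnfaip3 were at 0.254 and Irak3 and Cyld at 0.235. Tnip1 was high in TLR4ΔIEC replicates 1 and 2 but not 3. Sigirr and Socs1 were the farthest apart, at 0.542. These distances describe 6 libraries and carry no test. Of all tested genes 24.1, 21.65 and 32.2% were highest in TLR4ΔIEC replicates 1, 2 and 3, and 4.6 to 8.8% in each WT library. A peak in any of these TLR4ΔIEC libraries was thus common.

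**Figure D3:**
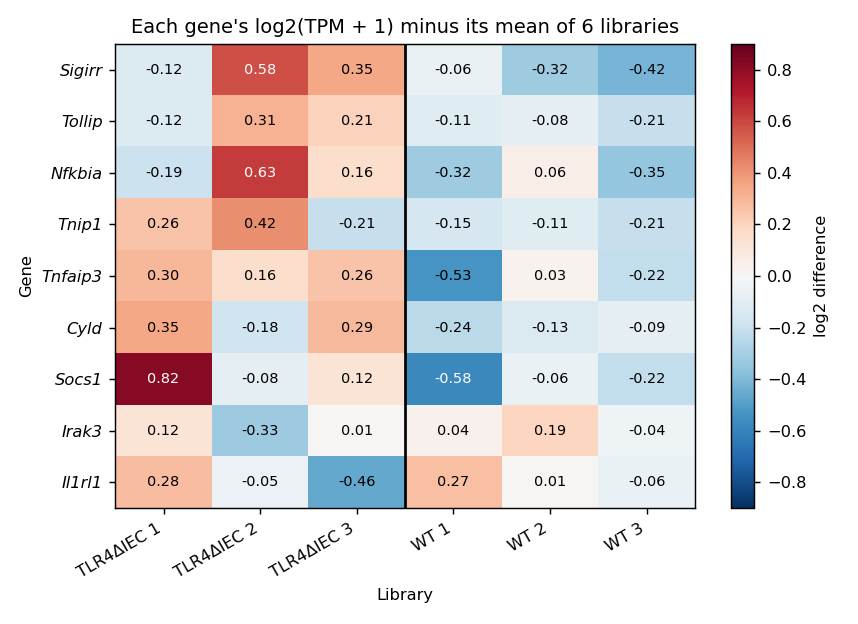
Each inhibitor's log2(TPM + 1) minus its own mean over the 6 libraries (colour and printed value), genes in rows and libraries in columns, TLR4ΔIEC left of the line and WT right of it. Sigirr, Tollip and Nfkbia peak in TLR4ΔIEC replicate 2, at 0.58, 0.31 and 0.63, while Socs1 peaks in TLR4ΔIEC replicate 1, at 0.82.

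The genes nearest to the 3 most variable inhibitors were sought over all tested genes by the same distance. Nearest to Sigirr were Hint1, Wipf2 and Aspscr1, at 0.031, 0.044 and 0.045. Nearest to Nfkbia were Sdhc, Mtch2 and Ndufa8, which encode mitochondrial proteins, at 0.045, 0.057 and 0.062. Nearest to Socs1 were Naa20, Tap2 and Hspa4l, at 0.097, 0.127 and 0.138. Tap2, a subunit of the peptide transporter of antigen presentation, read 48.8, 29.8 and 27.2 TPM in TLR4ΔIEC and 21.3, 26.01 and 23.6 TPM in WT.

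The rest of the pathway was then set beside its brakes. In all 8 lists of pathway genes 0 members passed an adjusted p of 0.05 in limma, which called 0.119% of all tested genes. At an unadjusted p under 0.05, which 21.2% of all tested genes met, limma gave 5 of 8 IκB kinase and NF-κB subunits, 7 of 22 other inhibitors, 4 of 19 relay genes and 6 of 8 linear ubiquitin partners. It gave 3 of 10 NF-κB targets, 6 of 11 immediate early genes, 2 of 9 interferon genes and, of 3 genes in the interleukin-33 axis, Areg and Il33. Of 8 IκB kinase and NF-κB subunit genes, all 8 had positive log2 fold changes and in 6 the TLR4ΔIEC libraries lay above WT, against 24.1% of all tested genes. Their median was 0.48, and under other scalings 6 or 7 of the 8 were positive. Relb, a subunit of the non-canonical pathway, averaged 117.3 ± 29.5 TPM in libraries labelled TLR4ΔIEC and 48.2 ± 8.66 TPM in the WT libraries (SD, n = 3 each), a log2 fold change of 1.25 (limma adjusted p = 0.0873). Its partner Nfkb2 averaged 24.1 ± 3.40 TPM in TLR4ΔIEC and 12.0 ± 1.01 TPM in WT (log2 fold change 0.94, limma adjusted p = 0.0828). Both kept positive values under each other scaling, from 0.94 to 1.11 for Relb and from 0.645 to 0.80 for Nfkb2. Rela and Ikbkb, of the canonical pathway, had log2 fold changes of 0.49 and 0.46, which came to 0.19 and 0.155 in the rescaled TPM.

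Of 24 other inhibitors of TLR and NF-κB signalling, 22 were tested and 17 were positive, where 68.1% of all tested genes were positive. In 8 of the 22 the libraries labelled TLR4ΔIEC all lay above WT, against 24.1% of all tested genes. The median was 0.33, close to the 0.32 of the 9, and it came to 0.042 in the rescaled TPM. Nlrx1, a mitochondrial NOD-like receptor that restrains TRAF6, had a log2 fold change of 0.96 (limma adjusted p = 0.0913). Zfp36, which encodes the mRNA-destabilising protein tristetraprolin, had 0.81, Nfkbib, the sister gene of Nfkbia, had 0.77, and Bcl3, a nuclear IκB protein, had 0.70. Nfkbib read 53.2, 75.6 and 51.8 TPM in TLR4ΔIEC and 38.7, 33.1 and 31.5 TPM in WT, so its groups lay apart where those of Nfkbia overlapped; the difference between the 2 genes was not tested.

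In the receptor relay 19 of 20 genes were tested and 15 were positive, against 68.1% of all tested genes. In 7 the TLR4ΔIEC libraries lay above WT, against 24.1% of all tested genes, and the median was 0.38. The targeted gene Tlr4 is itself counted in the 19, the 15 and the 7. Its WT libraries all read under 1 TPM, so it passed the filter only through the libraries labelled TLR4ΔIEC. The adaptor Myd88 averaged 29.7 ± 3.63 TPM in TLR4ΔIEC and 19.8 ± 2.73 TPM in WT (log2 fold change 0.56, limma adjusted p = 0.129), and Ticam1, Traf6 and Tab2 had log2 fold changes of 0.58, 0.50 and 0.38. In the rescaled TPM Myd88, Ticam1, Traf6 and Tab2 came to 0.25, 0.27, 0.235 and 0.072. Irak1, the kinase that TOLLIP and IRAK3 restrain, had −0.32. Of the 8 linear ubiquitin and CYLD partners, all 8 were positive and 6 had TLR4ΔIEC above WT. Among all tested genes these shares were 68.1 and 24.1%. The median of the 8 was 0.44. Traf2, Tradd, Sharpin and Ripk1, which build the receptor complexes that A20 and CYLD take apart, had log2 fold changes of 0.78, 0.62, 0.50 and 0.38, which came to 0.49, 0.30, 0.18 and 0.070 in the rescaled TPM. In the rescaled TPM 10 of the 19 relay genes and 7 of the 8 partners were positive, with medians of 0.072 and 0.126, against 34.7% and −0.13 for all genes there.

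The NF-κB target genes depended on TLR4ΔIEC replicate 2. Of 16 NF-κB target genes 10 were tested, 5 were positive, and the median was 0.060. The median was −0.13 under median-of-ratios scaling, 0.114 under quantile normalization and −0.0053 in the rescaled TPM. There 4 of 9, 6 of 10 and 5 of 12 tested targets were positive, so these medians are not all of the same genes. Without TLR4ΔIEC replicate 2 all 11 targets then tested were positive, with a median of 0.45, against 0.215 for all tested genes. Ccl2, which was too low to test in all libraries of TPM as deposited, was among the 11. It read 2.0, 0.19 and 1.16 TPM in TLR4ΔIEC and 0.68, 0.39 and 0.86 TPM in WT. In Ccl2 and Ptgs2 every WT value was under 1 TPM. These genes thus passed the filter only through TLR4ΔIEC libraries, and their positive sign there carries no weight. Nos2, the inducible nitric oxide synthase, averaged 72.5 ± 22.6 TPM in libraries labelled TLR4ΔIEC and 33.8 ± 5.03 TPM in the WT libraries (log2 fold change 1.05, limma adjusted p = 0.101). The epithelial chemokine Ccl20 stood at 28.5, 2.15 and 11.4 TPM in TLR4ΔIEC and 1.10, 0.86 and 1.88 TPM in WT, with a log2 fold change of 2.23 (limma adjusted p = 0.162). Birc3, a target that is itself a ubiquitin ligase, had 0.43. The cytokines Tnf and Il6 were too low to test, at 0.77 to 0.92 TPM in TLR4ΔIEC and 0.56 to 0.78 TPM in WT for Tnf, and at most 0.02 TPM in any library for Il6.

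Immediate early genes, transcription factors and regulators that are switched on within minutes of many stimuli, had the highest median of the 8 pathway lists, 0.73. Of the 11, 10 were positive, and 8 in the rescaled TPM, against 68.1 and 34.7% of all tested genes. In 7 the libraries labelled TLR4ΔIEC lay above WT, against 24.1% of all tested genes. Egr1 averaged 16.4 ± 6.73 TPM in TLR4ΔIEC and 2.61 ± 0.868 TPM in WT (log2 fold change 2.20, limma adjusted p = 0.0800), and Jun, Ier2 and Klf6 had log2 fold changes of 1.10, 0.95 and 0.73. Of 9 tested interferon gamma and JAK-STAT genes 8 were positive, with a median of 0.28 that turned to −0.033 in the rescaled TPM. The receptor subunits Ifngr1 and Ifngr2 had log2 fold changes of 0.87 and 0.74, and Stat3 and Irf1 of 0.34 and 0.27; Irf1 turned to −0.015 under quantile normalization and −0.050 in the rescaled TPM. Of the 6 genes of the interleukin-33 axis 3 were tested, with 1 positive: Areg, a growth factor made by cells that interleukin-33 activates and by epithelium, at 1.24.

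**Figure D4:**
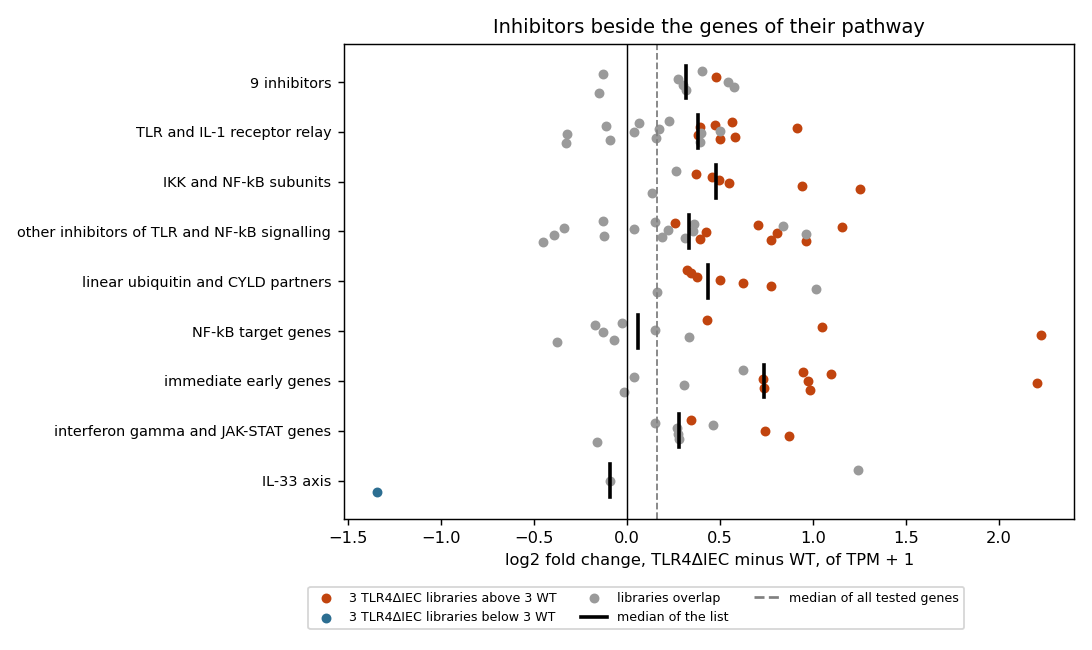
Log2 fold change of TPM + 1, TLR4ΔIEC minus WT (horizontal axis), for the 9 inhibitors and the tested genes of 8 pathway lists (rows); orange points have all 3 TLR4ΔIEC libraries above WT, blue points all 3 below, grey points overlap, black bars are list medians and the dashed line is the median of all tested genes. The median of the 9 inhibitors, 0.32, lies between that of the NF-κB target genes, 0.060, and that of the immediate early genes, 0.73.

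Transcripts that mark cell types and gut regions were also set beside the labels. In the cell type lists 0 genes passed an adjusted p of 0.05 in limma, against 0.119% of all tested genes. The lowest adjusted p of an epithelial gene in limma was 0.112. The summed level of 7 epithelial genes, among them Krt8 and Epcam, was 9410 to 12790 TPM in libraries labelled TLR4ΔIEC and 7350 to 7605 TPM in the WT libraries. Their log2 fold changes were all positive in TPM as deposited and 6 of 7 in the rescaled TPM, with a median of 0.51 as deposited. Fibroblast, smooth muscle, endothelial and T cell lists were negative in every tested member, with medians of −0.28, −0.22, −0.43 and −0.42, and their summed levels overlapped between the labels. Without TLR4ΔIEC replicate 2 all 6 fibroblast and all 5 smooth muscle genes were positive, with medians of 0.195 and 0.26, as were 2 of 6 T cell genes, while the 5 endothelial genes stayed negative. In the macrophage and monocyte list 1 of 10 was positive, and 7 of 10 without that library. Of 6 B and plasma cell genes 5 were positive, with a median of 0.69, and Jchain was negative, at −2.02. Without TLR4ΔIEC replicate 2 the median of this list was 1.71. Jchain averaged 187.7 TPM in TLR4ΔIEC and 599.6 TPM in WT, and Sdc1 averaged 121.6 TPM in TLR4ΔIEC and 62.7 TPM in WT. Sdc1 did not follow the rest of the list. It was highest in TLR4ΔIEC replicate 2, at 152.4 TPM, where Jchain, at 46.9 TPM, and the summed list were lowest. Among 6 markers of the proximal small intestine Lct, Gata4 and Apoa4 fell past the threshold (limma adjusted p = 0.0316, 0.0494 and 0.0350), as 0.0743% of all tested genes did, and the 6 summed to 140.0 to 203.1 TPM in TLR4ΔIEC and 627.3 to 1826 TPM in WT. Lct, Gata4 and Apoa4 were lower under all 17 alternatives and past the threshold in 12, 7 and 9 of them; without TLR4ΔIEC replicate 2 the adjusted p in limma were 0.0650, 0.104 and 0.0969, and without WT replicate 2 0.0928, 0.181 and 0.0789. Slc40a1, of the same list, went the other way, at 18.6, 18.1 and 34.8 TPM in TLR4ΔIEC and 8.87, 6.38 and 6.91 TPM in WT. The 6 ileal genes summed to 11060 to 36800 TPM in TLR4ΔIEC and 3327 to 8229 TPM in WT, and Fabp6 made up most of each sum. Of the 6, 5 had positive log2 fold changes. Fgf15 had −0.045 and overlapped, at 1.4, 28.54 and 20.32 TPM in TLR4ΔIEC and 0.7, 33.15 and 27.56 TPM in WT. The part of the region of gut and of the share of epithelium in the values of the 9 inhibitors was not tested.

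Set against the epithelial genes instead of against all transcripts, genes in general moved toward lower values in TLR4ΔIEC, the inhibitors among them. Per 1000 TPM of the 7 epithelial genes, Sigirr was at 1.56, 2.03 and 2.33 TPM in TLR4ΔIEC and 2.15, 1.76 and 1.69 TPM in WT, and Tnfaip3 at 1.60, 1.12 and 1.65 TPM in TLR4ΔIEC and 1.13, 1.72 and 1.47 TPM in WT. On that scale 78.2% of all tested genes had a lower mean in TLR4ΔIEC, since the epithelial sum was higher there, and 21.4% had each TLR4ΔIEC library below each WT library. The groups overlapped for Sigirr and Tnfaip3, as they did for each of the 7 inhibitors with a positive log2 fold change. The mean was lower in libraries labelled TLR4ΔIEC for 6 of the 9, including Tollip, at 4.24 in TLR4ΔIEC and 4.91 in WT, and Nfkbia, at 6.73 in TLR4ΔIEC and 7.16 in WT. Il1rl1 and Irak3 lay below WT in each library, as 21.4% of all tested genes did on that scale. Il1rl1 was at 0.292 to 0.527 in TLR4ΔIEC and 0.539 to 0.691 in WT. For Irak3 it was 0.0594 to 0.141 in TLR4ΔIEC and 0.157 to 0.201 in WT.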

How the data were processed

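RNA of small intestine from 3 mice labelled TLR4ΔIEC and 3 labelled WT was sequenced. Per the submitters' processing notes, fastp, HISAT, RSEM and the build GRCm38.p5 were used, without versions or roles. The authors deposited TPM for every gene in each library beside a gene length; the authors' group means were not used. Sample titles gave the groups and replicate numbers, and the labels do not say whether same-numbered mice share a litter or day. The labels and design text give 3 mice per genotype. Coordinates are from GENCODE M21 (GRCm38).

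Testing took in the 13458 genes whose mean reached 1 TPM, used limma 3.58.1 (R 4.3.3) and worked on log2(TPM + 1) (lmFit, eBayes with intensity trend, two-sided, genotype as the single term), with Benjamini-Hochberg adjustment over all tested genes and a threshold of 0.05. Fold changes are TLR4ΔIEC minus WT on that scale, so changes of low genes are understated. The fit was tested on simulated data. Figures were drawn with matplotlib 3.10.9. Libraries of a genotype correlated at 0.939 to 0.977 on the log2 scale, and none duplicated another.

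The 9 inhibitors and the gene lists were chosen with earlier results of these data known. From each pathway list up to 4 genes were named: those past the threshold, then those whose groups do not overlap, by p, then those of highest mean TPM. Irak1, Tnf, Il6, Mcpt1, Tmbim4, Lct, Gata4, Apoa4, Slc40a1, Fgf15, Jchain, Sdc1, the ratios and the levels per epithelial TPM were chosen after their values were seen. Rescaled TPM leave out alpha-defensin genes, mitochondrially encoded genes and Rn18s, Cmss1 and Gphn (18S-like). No set test was run.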

Additional observations from a re-analysis of the deposited data

How the results depend on the processing

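With 3 libraries per group and unknown depth, these data cannot settle changes of the size seen in the inhibitors, whose intervals are wide. Under each of the 17 alternatives 0 of the 9 passed the threshold; limma gave 0 to 3 of them at an unadjusted p under 0.05. The number with a positive log2 fold change was 5 to 8. The direction turned for Tollip under quantile normalization (−0.034) and in TPM rescaled without alpha-defensin, mitochondrial and 18S-like genes (−0.046), for Tnip1 in the rescaled TPM (−0.00080), for Il1rl1 without TLR4ΔIEC replicate 3 (0.043; −0.33 to 0.043 when a library was left out) and for Irak3 without TLR4ΔIEC replicate 2 (0.0043; −0.22 to 0.0043). Among all tested genes 16 passed (6 higher, 10 lower; 3 and 15 by median-of-ratios scaling, 4 and 14 by quantile normalization, 3 and 11 in the rescaled TPM). That number was 0 with no filter (limma: 3377 at an unadjusted p under 0.05), 7 at a mean of at least 5 TPM, 136 with array weights, and 0 to 367 when a library was left out: 0 without WT replicate 2 or TLR4ΔIEC replicate 2 (limma: 1681 and 2651 at an unadjusted p under 0.05), 3 without WT replicate 3, 5 without TLR4ΔIEC replicate 3, 32 without WT replicate 1 and 367 without TLR4ΔIEC replicate 1. The cause was not tested. With the replicate number as a block 1 gene and 0 of the 9 inhibitors passed; same-numbered libraries correlated at −0.037, 0.035 and 0.12 in their deviations, so the numbers were not taken as pairs. At a mean of at least 5 TPM Il1rl1, Irak3 and Socs1 were not tested.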
